A study of Mus musculus with 29 samples.

Results

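The TAM receptors Mertk, Axl and Tyro3 and the phosphatidylserine-bridging ligands Gas6, Pros1 and Mfge8 were followed by gene symbol through 1 table of expression values, in which they are 6 of 23930 genes. All 6 were found. The table holds 29 RNA-seq libraries of macrophages sorted by flow cytometry from untreated mice and falls into 9 groups. In the spleen, Ly6Chi cells were sorted from wild-type (WT, 3 libraries) and Rnaset2-/- (3) mice, and Ly6Clow cells from WT (3) and Rnaset2-/- (4) mice. In the liver, Ly6Chi and Ly6Clow cells were sorted from both genotypes (3 libraries in each of the 4 groups) and Kupffer cells (KCs) from WT mice (4). Rnaset2-/- stands for mice lacking both Rnaset2a and Rnaset2b, the genes of a lysosomal ribonuclease, on the C57BL/6 background. Ages are not given in the sources used here. Ly6Chi cells were gated as CD11b+ and negative for Ly6G, SiglecF and NK1.1, Ly6Clow cells in addition as Fcgr4+, and KCs as F4/80+ Tim4+ cells with intermediate CD11b and low PDCA-1. The labels number the replicates but do not say that they came from separate animals, so p-values measure the spread between these libraries, which may be in part technical.

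TAM receptors are receptor tyrosine kinases on macrophages and other cells. They do not bind apoptotic cells directly. The vitamin K-dependent proteins Gas6 and protein S (Pros1) attach to phosphatidylserine on the dying cell through a carboxylated domain and to the receptor through the other end, which starts engulfment and dampens Toll-like receptor and cytokine signaling. Gas6 is the ligand of Axl, and Mertk and Tyro3 accept both Gas6 and protein S. Mfge8, a secreted glycoprotein, bridges phosphatidylserine to αv integrins on the phagocyte rather than to a TAM receptor, and works beside Mertk. In the liver, Mertk and Axl are known on KCs, and clearance of dying cells there induces Mertk through liver X receptors, nuclear receptors that pair with RXR.

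On GRCm38, the GENCODE annotation places Mertk on chromosome 2 (128698956 to 128802894, plus strand), Tyro3 on the same chromosome (119797733 to 119818104, plus strand), Axl on chromosome 7 (25757273 to 25788705, minus strand), Mfge8 also on chromosome 7 (79133768 to 79149060, minus strand), Gas6 on chromosome 8 (13465374 to 13494490, minus strand) and Pros1 on chromosome 16 (62854307 to 62929346, plus strand). Mertk and Axl, the receptors that carry most of the results, are shown by the 250 bases before their RefSeq transcription starts (GRCm38.p6; chr2:128698665-128698914, plus strand, and chr7:25788734-25788983, minus strand). Each is written 5′ to 3′ along its gene, with CG dinucleotides in capitals.
Mertk: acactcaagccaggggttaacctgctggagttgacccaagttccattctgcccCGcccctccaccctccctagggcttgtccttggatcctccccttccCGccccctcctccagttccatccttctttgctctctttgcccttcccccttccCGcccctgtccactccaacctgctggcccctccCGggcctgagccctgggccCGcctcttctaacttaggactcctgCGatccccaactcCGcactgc
Axl: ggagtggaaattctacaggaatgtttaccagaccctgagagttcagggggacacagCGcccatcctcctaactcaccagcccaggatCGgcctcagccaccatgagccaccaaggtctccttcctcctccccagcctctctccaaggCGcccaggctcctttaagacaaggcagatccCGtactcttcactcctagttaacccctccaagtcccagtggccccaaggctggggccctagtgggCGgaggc
The Mertk stretch held 7 CG dinucleotides and the Axl stretch 5, against a median of 6 over 32807 promoter stretches of the same length. AGGTCA is the core that nuclear receptors such as the liver X receptors bind in repeats, and both strands were searched for these letters. The core was not found in the 250 bases of Mertk, Axl or the other 4 members, and it occurs in 14% of all promoter stretches. The search covers these windows alone and says nothing about the receptors.

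Values are RPM, that is, read counts scaled to the same total in each library. They step in whole reads, and libraries held 11175843 to 21167602 reads, so that 3 reads, taken as the floor of detection, came to 0.142 to 0.268 RPM. Each gene is measured by a designed amplicon, so the members' RPM were compared between groups and not with each other. In these sorted pools, fewer cells of a type and less RNA per cell cannot be told apart.

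Rnaset2a and Rnaset2b were not analysed here, so the genotype labels were not checked on the targeted genes. Some libraries stood apart, and some of the results they touch, but not all, are also given without them. KC replicate 3 held 7220 RPM summed over 9 KC markers, against 19112 to 21183 RPM in the other 3 KC libraries, and more endothelial (5641 against 2287 to 3371 RPM) and hepatocyte (4800 against 1496 to 1578 RPM) markers. Liver Ly6Chi Rnaset2-/- replicates 2 and 3 held 1933 and 2367 RPM of 10 endothelial markers, against 453 RPM in replicate 1. Spleen Ly6Clow Rnaset2-/- replicate 1 held 622 RPM of the KC list against 127 to 220 RPM in the other 3, and 38700 RPM of 8 neutrophil markers against 3326 to 22222 RPM. All 6 liver Rnaset2-/- libraries held Y-linked RNA with Xist at no more than 0.154 RPM, whereas the liver WT libraries held Xist at 321.5 RPM or more, so in the liver sex and genotype cannot be told apart. Among spleen libraries, Ly6Clow Rnaset2-/- replicate 2 held Y-linked RNA and Xist at 0.781 RPM, and all others held Xist at 352.5 RPM or more. Among Rnaset2-/- libraries, organ and sex therefore largely coincide. Replicates 2 and 3 of both liver WT monocyte-derived groups held Xist and Y-linked RNA together. In KCs the defining marker Clec4f averaged 4197 ± 1709 RPM (SD, n = 4), and it reached 0.071 RPM at most in spleen Ly6Clow Rnaset2-/- cells.

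All 6 members had their highest mean in KCs, and their levels are plotted by library for the 9 groups. Without KC replicate 3 this held for 5 of them, since Tyro3 was then highest in liver Ly6Chi Rnaset2-/- cells. KC libraries also held more hepatocyte, stellate cell and fibroblast, and B cell marker RNA than any other library. The part of this RNA in the members' levels was not tested.

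**Figure D1:**
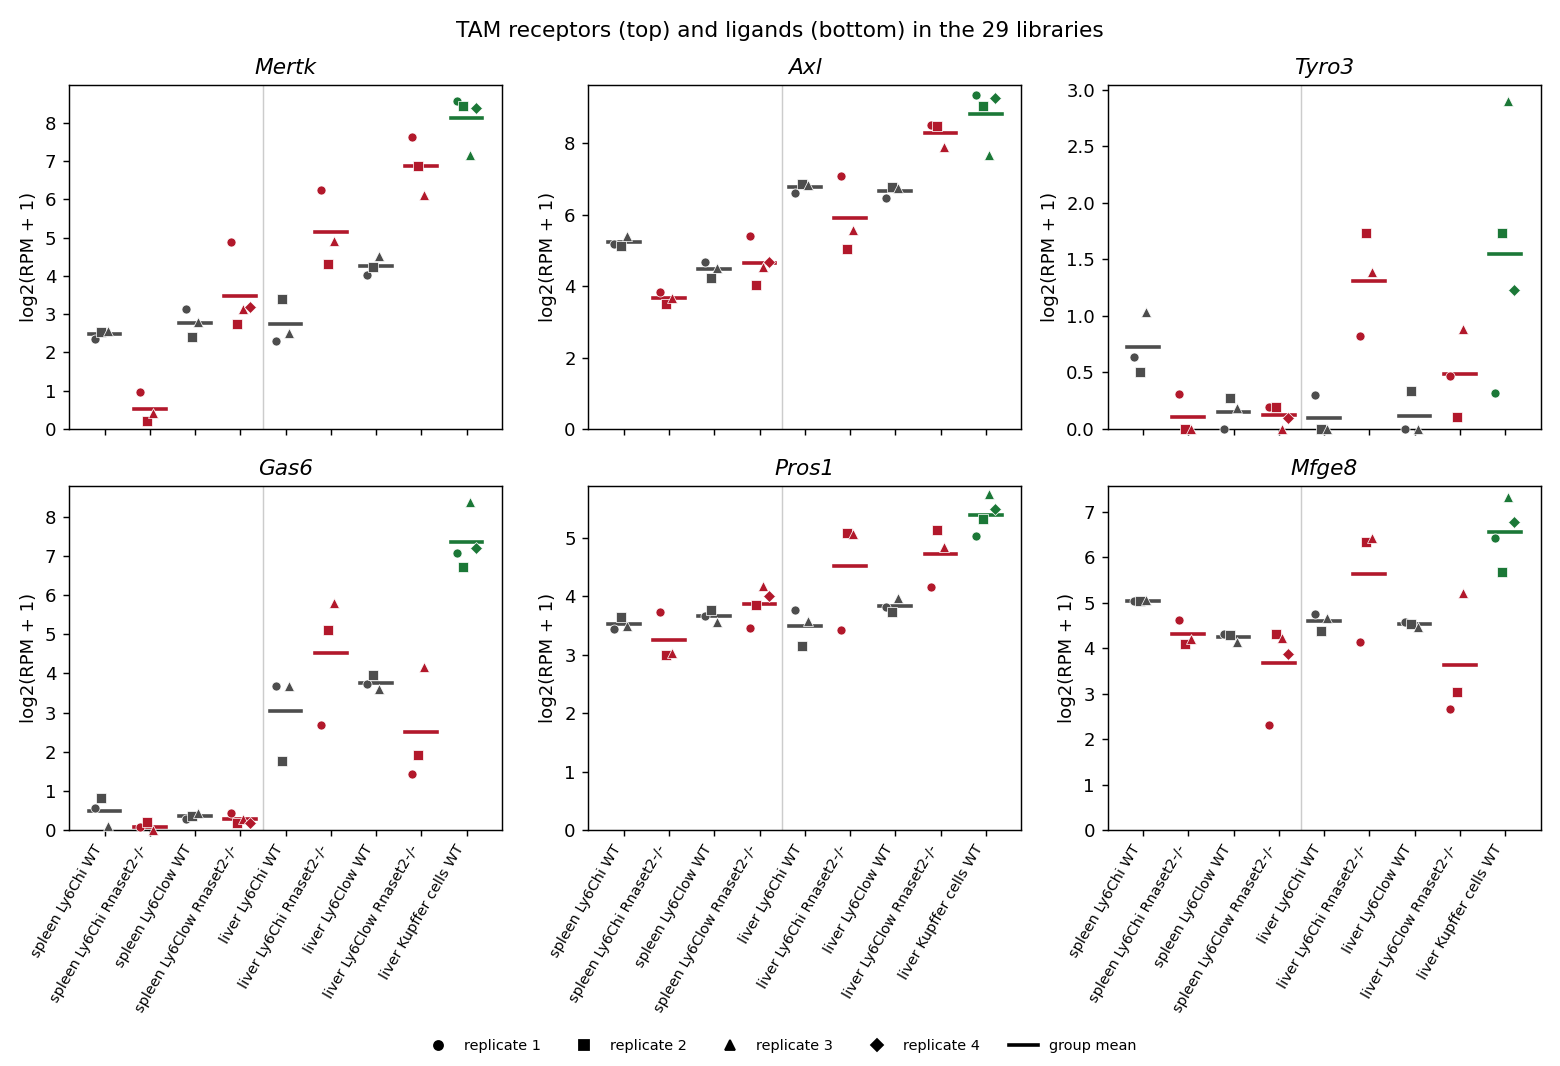
Levels of the 3 receptors (top row) and 3 ligands (bottom row) in the 29 libraries as log2(RPM + 1). Each symbol is a library, with its shape giving the replicate number, and bars are group means; WT monocyte-derived groups are grey, Rnaset2-/- groups red and WT KCs green. Mertk and Axl were highest in KCs and next highest in liver Ly6Clow Rnaset2-/- cells, where Gas6 stayed at 16.9 RPM or below.

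Mertk, the receptor most closely tied to engulfment of apoptotic cells, read 379.7, 344.8, 141.4 and 334.1 RPM in KC replicates 1 to 4. Liver Ly6Clow Rnaset2-/- cells came next, at 196.4, 116.9 and 68.8 RPM, followed by liver Ly6Chi Rnaset2-/- cells at 75.1, 18.8 and 29 RPM. Only KC replicate 3 fell within the range of liver Ly6Clow Rnaset2-/- cells, and the latter overlapped with liver Ly6Chi Rnaset2-/- cells through their replicates 3 and 1. Liver Ly6Clow WT cells read 15.1, 17.7 and 21.8 RPM. Spleen Ly6Clow Rnaset2-/- cells read 28.7, 5.68, 7.73 and 8.03 RPM. Liver Ly6Chi WT (6.09 ± 3.06 RPM), spleen Ly6Clow WT (5.99 ± 1.75 RPM) and spleen Ly6Chi WT cells (4.59 ± 0.438 RPM; SD, n = 3 each) had overlapping ranges. Spleen Ly6Chi Rnaset2-/- cells were lowest, at 0.945, 0.147 and 0.332 RPM, and all 3 lay below every other library. Each group in this order overlapped with the next one down except for that last step.

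Axl, a receptor with Gas6 as its ligand and a known link to interferon and Toll-like receptor feedback, read 645.0, 527.1, 200.8 and 617.1 RPM in KCs. Liver Ly6Clow Rnaset2-/- cells followed at 359.4, 352.8 and 237.3 RPM, and again KC replicate 3 was the only KC library not above them. A gap separated these 2 groups from liver Ly6Chi WT (108 ± 9.79 RPM) and liver Ly6Clow WT cells (101 ± 11 RPM; SD, n = 3 each), which overlapped. Liver Ly6Chi Rnaset2-/- cells read 134.3, 31.8 and 46.7 RPM, with replicate 1 above every liver WT Ly6Chi and Ly6Clow library and the other 2 below them. In the spleen, Axl averaged 36.8 ± 4.06 RPM in Ly6Chi WT cells (SD, n = 3), 25.7 ± 11.1 RPM in Ly6Clow Rnaset2-/- cells (n = 4) and 21.3 ± 3.49 RPM in Ly6Clow WT cells (n = 3), each overlapping with its neighbour. Spleen Ly6Chi Rnaset2-/- cells were lowest at 13.1, 10.4 and 11.8 RPM, below every other library.

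Tyro3, the TAM receptor known best from the nervous system and dendritic cells, was near the floor. KC replicates 1 to 4 read 0.246, 2.33, 6.46 and 1.34 RPM, and liver Ly6Chi Rnaset2-/- cells 0.768, 2.32 and 1.61 RPM. Spleen Ly6Chi WT cells read 0.555, 0.416 and 1.05 RPM. In each of the other 6 groups no library exceeded 0.842 RPM, and 5 of those groups included libraries listed at 0. All neighbours in its order of means overlapped.

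Gas6, the ligand shared by the 3 receptors, was largely a liver signal. KCs read 135.2, 105.2, 330.6 and 146.9 RPM, above every other library, with replicate 3 highest. Liver Ly6Chi Rnaset2-/- cells read 5.45, 33.4 and 54.5 RPM, liver Ly6Clow WT cells 12.3, 14.6 and 11.1 RPM, liver Ly6Chi WT cells 11.9, 2.42 and 11.7 RPM, and liver Ly6Clow Rnaset2-/- cells 1.69, 2.8 and 16.9 RPM. These 4 groups overlapped with their neighbours in the order. No spleen library exceeded 0.763 RPM, and none of the liver libraries fell below 1.69 RPM.

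Pros1, the gene of protein S, varied least. It averaged 42 ± 8.88 RPM in KCs (SD, n = 4), 26.4 ± 8.82 RPM in liver Ly6Clow Rnaset2-/- cells and 25.1 ± 13.3 RPM in liver Ly6Chi Rnaset2-/- cells (n = 3 each). The other 6 groups averaged between 8.8 and 13.9 RPM. Every group overlapped with the next in the order. Within liver Ly6Chi Rnaset2-/- cells, replicate 1 read 9.75 RPM and replicates 2 and 3 read 33.1 and 32.5 RPM.

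Mfge8, the integrin bridge, read 84.9, 50.3, 157.9 and 108.3 RPM in KCs. Liver Ly6Chi Rnaset2-/- cells read 16.4, 79.5 and 84.2 RPM, so that again replicate 1 lay apart from replicates 2 and 3. Spleen Ly6Chi WT cells, at 31.9, 31.6 and 32.0 RPM, lay above every liver Ly6Chi WT library, the only neighbours in the order that did not overlap. The lowest means were those of liver Ly6Clow Rnaset2-/- cells (5.31, 7.16 and 35.8 RPM) and spleen Ly6Clow Rnaset2-/- cells (3.98, 18.8, 17.6 and 13.7 RPM).

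The ligands Gas6 and Mfge8 followed the endothelial marker list within the Rnaset2-/- liver groups, as shown by the plot of 2 ligands and 2 receptors against that list. In liver Ly6Clow Rnaset2-/- cells the list summed to 1137, 2056 and 4112 RPM in replicates 1 to 3, the order of Gas6 and Mfge8 and the reverse of the order of Mertk and Axl. In liver Ly6Chi Rnaset2-/- cells, replicate 1 was lowest in the list (453 RPM), in Gas6, Mfge8 and Pros1, and highest in Mertk and Axl. Among KCs, replicate 3 was highest in the list, in Gas6, Mfge8, Pros1 and Tyro3, and lowest in Mertk and Axl. KC replicate 2 came next in the list (3371 RPM) but was lowest in Gas6 (105.2 RPM) and Mfge8 (50.3 RPM). Spleen Ly6Clow Rnaset2-/- libraries held 1519 to 2277 RPM of the list, with Gas6 at 0.141 to 0.356 RPM. The list includes Pecam1, which macrophages also express and which reached 3016 RPM in liver Ly6Clow Rnaset2-/- cells. Clec4g, a lectin of sinusoidal endothelial cells, ranged from 48.1 to 656 RPM in the same group and from 877 to 2662 RPM in KCs. The B cell list ran in the order of Gas6 and Mfge8 as well. It summed to 103, 197 and 370 RPM in liver Ly6Clow Rnaset2-/- replicates 1 to 3. In liver Ly6Chi Rnaset2-/- replicates 1 to 3 it summed to 92.1, 192 and 278 RPM. Among KCs it summed to 478, 423, 801 and 606 RPM in replicates 1 to 4, again the order of both ligands. The part of endothelial or B cell RNA in these levels was not tested.

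**Figure D2:**
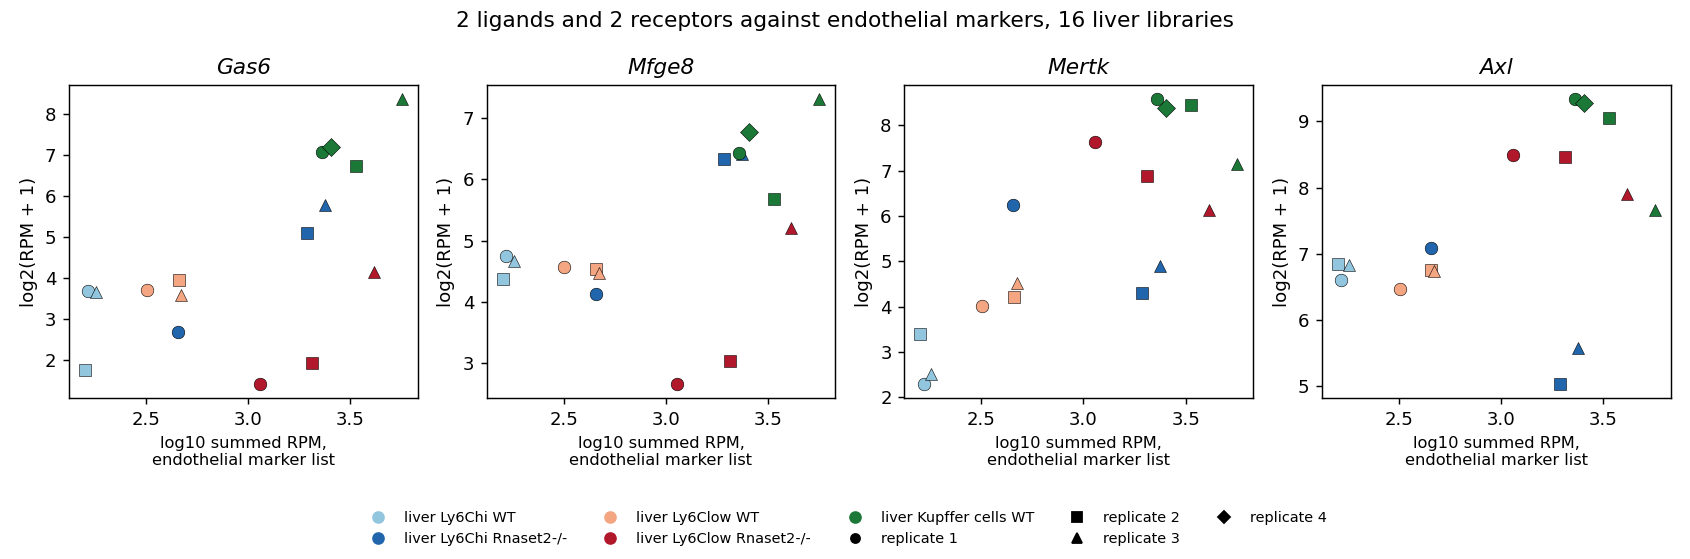
Gas6, Mfge8, Mertk and Axl (vertical axes, log2(RPM + 1)) against the summed RPM of 10 endothelial markers (horizontal axes, log10) in the 16 liver libraries. Colours are groups and symbol shapes replicate numbers. KC replicate 3 was the library with the highest sum of these markers (5641 RPM) and the highest Gas6, and among KCs the one with the lowest Mertk and Axl.

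Differences between groups were tested by limma on log2 values, two-sided, with Benjamini-Hochberg adjustment over all tested genes. A gene is said to be called when its adjusted p was below 0.05 and its change over 1.5-fold. Log2 differences are on the scale of log2(RPM + 1) after scaling by relative log expression factors, a scale that understates the change of genes with few reads.

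The first question was how loss of RNase T2 changed the members in each subset. In spleen Ly6Chi cells, 3 of the 4 members tested fell and none rose, where 22.2% of all tested genes were called and 12.5% were lower. Mertk dropped from 4.59 ± 0.438 to 0.475 ± 0.418 RPM (SD, n = 3 each), a log2 difference of -1.90 ± 0.22 (SE; limma adjusted p = 0.000148). Axl dropped from 36.8 to 11.8 RPM, a log2 difference of -1.45 ± 0.13 (limma adjusted p = 2.94e-05). In both genes the genotypes did not overlap. Axl was called in each fit that left out a library and Mertk in the 3 fits without a Rnaset2-/- library, whereas without a WT library Mertk fell under the filter. Since no Rnaset2-/- library reached 1 RPM, Mertk was tested through the WT group alone, and its call depends on the group where it was high. Mfge8 fell from 31.8 to 18.9 RPM, a log2 difference of -0.62 ± 0.14 (limma adjusted p = 0.00685), a call lost through the fold threshold without Rnaset2-/- replicate 2 (-0.54) or 3 (-0.56). Pros1 differed by -0.17 (95% interval -0.62 to 0.27) and was not called, and Tyro3 and Gas6 were too low to be tested, Tyro3 at 0.416 to 1.05 RPM in WT and 0 to 0.236 RPM in Rnaset2-/- cells. In the same libraries all 8 dendritic cell markers tested fell, their list summing to 319 to 353 RPM in WT and 94.4 to 98 RPM in Rnaset2-/- cells, as did 7 of 8 T and NK cell markers (583 to 622 against 98 to 212 RPM) and all 3 erythroid markers tested (140 to 146 against 6.47 to 16.4 RPM), whereas 5 of 8 neutrophil markers rose (30272 to 32516 against 32681 to 57391 RPM). Whether RNA of those cells took part in the differences of Mertk, Axl and Mfge8 was not tested.

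In spleen Ly6Clow cells, none of the 4 members tested was called in limma, where 8.35% of all tested genes were. None of the 4 reached an unadjusted p under 0.05, and edgeR and DESeq2 on the recovered reads called 0 of them as well. The log2 difference was 0.71 for Mertk (95% interval -0.32 to 1.75), 0.19 for Axl (-0.46 to 0.84), 0.21 for Pros1 (-0.27 to 0.70) and -0.55 for Mfge8 (-1.58 to 0.48). Mertk in Rnaset2-/- replicate 1, at 28.7 RPM, lay above every WT library, and replicates 2 to 4 read 5.68, 7.73 and 8.03 RPM against a WT range of 4.25 to 7.76 RPM.

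In liver Ly6Chi cells, Mertk rose in the absence of RNase T2 and was the only one of 5 tested members called, where 30.6% of all tested genes were. It read 3.94, 9.60 and 4.74 RPM in WT cells and 75.1, 18.8 and 29 RPM in Rnaset2-/- cells, without overlap, a log2 difference of 2.13 ± 0.54 (SE; limma adjusted p = 0.0214). Axl went the other way by -1.18 ± 0.51 (limma adjusted p = 0.114), with Rnaset2-/- replicate 1 above and replicates 2 and 3 below all WT libraries. Gas6, Pros1 and Mfge8 differed by 1.19, 0.73 and 0.71 on the log2 scale and were not called. The calls of Axl, Gas6, Pros1 and Mfge8, but not that of Mertk, turned on the single library Rnaset2-/- replicate 1. Without it Axl fell by 1.82 on the log2 scale and Mertk, Gas6, Pros1 and Mfge8 rose, the latter 3 by 2.05, 1.22 and 1.41, so that all 5 were called. Without WT replicate 1 or 3 the adjusted p of Mertk was 0.0831 and 0.0807. Tyro3 was under the filter in this comparison, and its WT libraries, at 0.232, 0 and 0 RPM, lay below the Rnaset2-/- libraries, at 0.768 to 2.32 RPM. Beside these members, 9 of 10 endothelial markers rose (159 to 180 RPM in WT and 453 to 2367 RPM in Rnaset2-/- libraries), as did 6 of 8 KC markers (9.42 to 18.4 and 428 to 531 RPM), all 8 T and NK cell markers (12.7 to 20.2 and 395 to 534 RPM), all 4 B cell markers (19 to 20.5 and 92.1 to 278 RPM) and all 5 erythroid markers tested (2.86 to 6.26 and 93 to 313 RPM). Their part in the members' differences was not tested. Clec4f, the defining KC marker, reached no more than 4.08 RPM in these Rnaset2-/- cells.

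In liver Ly6Clow cells, both abundant receptors rose together with the ligand Pros1, and 3 of 5 tested members were higher where 42.7% of all tested genes were called and 20.2% were higher. Mertk rose from 18.2 ± 3.37 to 127 ± 64.4 RPM (SD, n = 3 each), a ratio of 6.99 in RPM and a log2 difference of 2.59 ± 0.35 (SE; limma adjusted p = 0.000696). Axl rose from 101 ± 11 to 317 ± 68.7 RPM, a ratio of 3.15 and a log2 difference of 1.58 ± 0.20 (limma adjusted p = 0.000531). Every Rnaset2-/- library lay above every WT library for both receptors, and both calls held in each fit that left out a library. The study reports both as high in KCs and liver Ly6Clow Rnaset2-/- cells from these data, so their direction here is not independent evidence. By flow cytometry it also reports both proteins as raised in liver Ly6Clow Rnaset2-/- cells. Pros1 read 13.2, 12.3 and 14.7 RPM in WT and 16.9, 34.4 and 27.9 RPM in Rnaset2-/- cells, a log2 difference of 0.84 ± 0.27 (limma adjusted p = 0.0324). This call was lost in 5 of 6 fits that left out a library, all but the fit without Rnaset2-/- replicate 1, with adjusted p up to 0.102 and log2 differences between 0.67 and 1.13. Gas6 and Mfge8 differed by -1.29 and -0.93 on the log2 scale and were not called. Without Rnaset2-/- replicate 3 both were called lower, by -2.13 (limma adjusted p = 0.00107) and -1.73 (0.000979). That library was the highest of its group in the endothelial and B cell lists. In the same comparison 7 of 9 KC markers rose, their list summing to 174 to 252 RPM in WT and 6215 to 11970 RPM in Rnaset2-/- libraries. Cd5l averaged 7290 ± 2132 RPM (SD, n = 3) in Rnaset2-/- cells against 6345 RPM in KCs, and Clec4f 44.7 ± 23.9 RPM against 4197 RPM in KCs. All 4 B cell markers (25.7 to 30 and 103 to 370 RPM), all 5 erythroid markers tested (3.56 to 6.62 and 65.1 to 174 RPM) and 4 of 6 T and NK cell markers (4.72 to 6.28 and 40.7 to 116 RPM) rose as well, and 5 of 9 dendritic cell markers fell (630 to 777 and 137 to 336 RPM). Of 10 endothelial markers 2 rose and 1 fell, their list summing to 319 to 471 RPM in WT and 1137 to 4112 RPM in Rnaset2-/- libraries. The part of these shifts in the rise of Mertk and Axl was not tested.

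**Figure D3:**
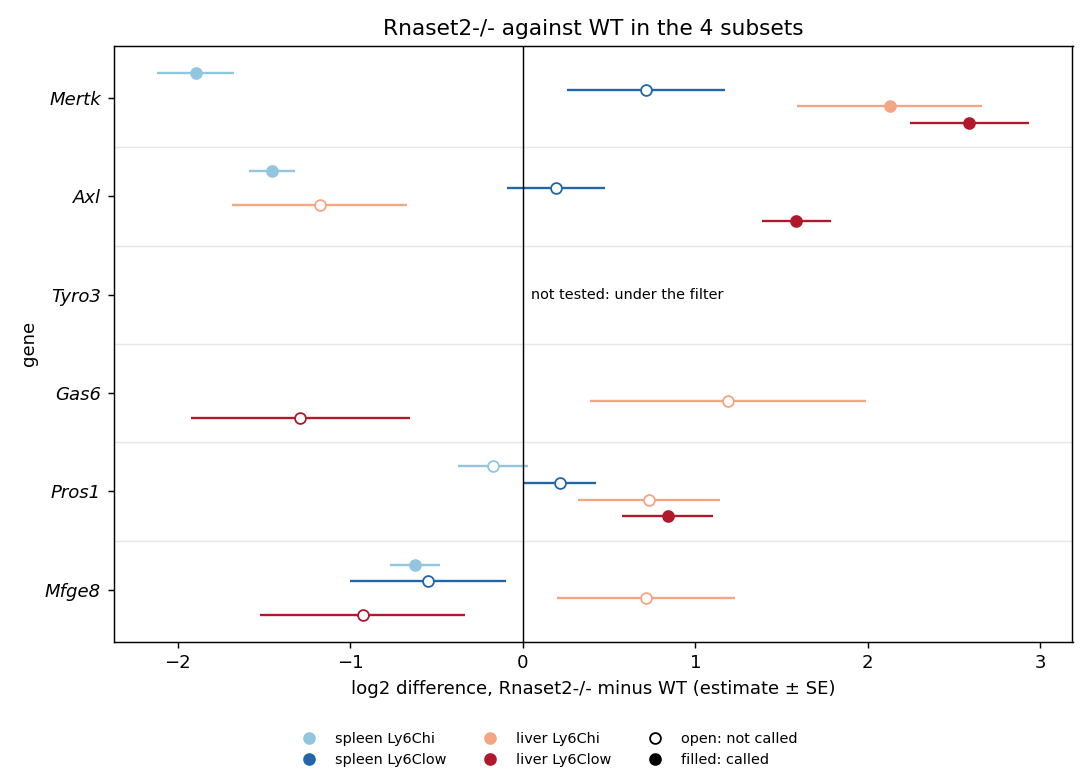
Log2 difference between Rnaset2-/- and WT libraries for each member in the 4 subsets, with standard errors as bars; filled points were called by limma and open points were not, and a gene under the filter has no point. Mertk and Axl lay left of 0 in spleen Ly6Chi cells (-1.90 and -1.45) and right of 0 in liver Ly6Clow cells (2.59 and 1.58).

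Interaction terms asked whether the effect of genotype differed between organs or subsets. Between organs, in Ly6Clow cells the difference of log2 differences (liver minus spleen) was 1.88 ± 0.63 for Mertk (SE; limma adjusted p = 0.042) and 1.40 ± 0.37 for Axl (0.0139), 2 of 5 tested members called where 26.8% of all tested genes were. The call of Mertk was lost in 10 of 13 fits that left out a library, at adjusted p up to 0.0983, and that of Axl in none. In Ly6Chi cells it was 4.04 ± 0.64 for Mertk (limma adjusted p = 0.000601) and 1.73 ± 0.35 for Tyro3 (0.00288), 2 of 6 where 33.5% were called, with Tyro3 resting on 0 to 30 reads a library and passing the filter through 1 spleen WT and 2 liver Rnaset2-/- libraries. Mertk held no more than 0.945 RPM in spleen Ly6Chi Rnaset2-/- cells. Between subsets, in the spleen it was 2.58 ± 0.57 for Mertk (limma adjusted p = 0.0108) and 1.62 ± 0.35 for Axl (0.00897), 2 of 4 where 14.7% were called. In the liver it was 2.78 ± 0.60 for Axl (limma adjusted p = 0.0137), 1 of 5 where 10.3% were called. The liver value for Mertk, 0.48 with a 95% interval of -1.06 to 2.02, was not called. By Xist and Y-linked RNA, all liver Rnaset2-/- libraries looked male and the spleen ones, Ly6Clow replicate 2 apart, female. In the terms between organs, sex therefore cannot be told apart from organ and genotype.

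The next question was how the subsets differed within a genotype. In the WT spleen, Axl and Mfge8 were lower in Ly6Clow than in Ly6Chi cells, 2 of 4 tested members where 33.6% of all tested genes were called and 19.8% were lower. The log2 differences were -0.62 ± 0.14 for Axl (SE; limma adjusted p = 0.00387) and -0.66 ± 0.11 for Mfge8 (0.000642). Axl went below the fold threshold without Ly6Chi replicate 3 (-0.55) or Ly6Clow replicate 2 (-0.50), and without the latter Mertk was called higher (0.61). In the Rnaset2-/- spleen, Mertk and Axl were higher in Ly6Clow cells, 2 of 4 where 28.1% were called and 13% were higher. Mertk read 5.68 to 28.7 RPM in Ly6Clow and 0.147 to 0.945 RPM in Ly6Chi cells, a log2 difference of 2.97 ± 0.47 (SE; limma adjusted p = 0.00304) that ran from 2.51 to 3.22 without any 1 library. It passed the filter through the Ly6Clow group alone, so this call depends on the group where Mertk was high. Axl differed by 1.00 ± 0.28 (limma adjusted p = 0.0268), a call lost in 5 of 7 such fits (adjusted p up to 0.09).

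In the WT liver, Mertk was higher in Ly6Clow than in Ly6Chi cells by 1.41 ± 0.28 (SE; limma adjusted p = 0.0134), the only one of 5 tested members called where 10.1% of all tested genes were. The call was lost without Ly6Chi replicate 1 (adjusted p = 0.0517) or Ly6Clow replicate 3 (0.0715). In the Rnaset2-/- liver, only Axl was called, higher in Ly6Clow cells by 2.55 ± 0.55 (limma adjusted p = 0.0237), 1 of 5 where 17% were called; leaving out any single library other than Ly6Chi replicate 1 took the adjusted p above the threshold, to 0.0926 at most. Here libraries of the same number deviated from their group means together in all 3 pairs. With the replicate number as a block, 4 of the 5 were called where 28.8% of all tested genes were: Mertk (1.88 ± 0.28; limma adjusted p = 0.00334) and Axl (2.55 ± 0.37; 0.00299) were higher in Ly6Clow cells, and Gas6 (-1.87 ± 0.38; 0.0102) and Mfge8 (-1.83 ± 0.41; 0.0143) were lower. Mertk and Axl were higher, and Gas6 and Mfge8 lower, in Ly6Clow cells in 3 of 3 pairs.

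KCs served as the reference for the 4 monocyte-derived liver groups, and since all 4 comparisons share the KC libraries their values are not independent. KC libraries held 1496 to 4800 RPM of hepatocyte markers, against 253.5 RPM at most in those 4 groups. Stellate cell and fibroblast markers summed to 185.5 to 514 RPM in KCs, against up to 70.5 RPM. B cell markers summed to 423 to 801 RPM, against up to 370 RPM. KC neutrophil markers lay below both Ly6Chi groups, and KC endothelial markers overlapped with both Rnaset2-/- groups. The part of this RNA in the members' differences was not tested. In liver Ly6Chi WT cells all 6 members were lower than in KCs, where 54.6% of all tested genes were called and 29.3% were lower. In liver Ly6Clow WT cells 5 of 6 were lower, Tyro3 excepted (limma adjusted p = 0.0528), where 50% were called and 26% were lower. Mertk differed most, by -4.77 ± 0.35 in Ly6Chi and -3.31 ± 0.32 in Ly6Clow cells (SE; limma adjusted p = 5.47e-07 and 1.37e-05), and Gas6 next, by -3.67 and -3.02. Tyro3 passed the filter through KCs alone in both comparisons. In Ly6Chi WT cells its call (-1.25; limma adjusted p = 0.0439) did not hold without Ly6Chi replicate 1, 2 or 3 (adjusted p up to 0.112).

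Liver Ly6Chi Rnaset2-/- cells were lower than KCs in Mertk (-2.59 ± 0.52; limma adjusted p = 0.00611), Axl (-2.54 ± 0.58; 0.0103) and Gas6 (-2.45 ± 0.63; 0.0169), 3 of 6 where 32.1% of all tested genes were called and 17.2% were lower. Liver Ly6Clow Rnaset2-/- cells were lower in the ligands Gas6 (-4.37 ± 0.65; limma adjusted p = 0.000757) and Mfge8 (-2.42 ± 0.61; 0.0106), 2 of 6 where 45.6% were called and 26.3% were lower. The call of Mfge8 was lost without Ly6Clow replicate 2 (adjusted p = 0.0509). Mertk differed by -0.73 (95% interval -1.63 to 0.17), Axl by -0.01 (-0.88 to 0.86) and Pros1 by -0.17 (-0.78 to 0.44), and none of these was called. These intervals leave room for differences of over 1.5-fold. The value of Axl rests on the scaling, since in RPM as deposited it averaged 317 RPM against 498 RPM in KCs, a ratio of 0.636. Mertk was called lower with the replicate number as a block (-0.63 ± 0.21; limma adjusted p = 0.0433), with RPM as deposited (-1.26; 0.0255), without KC replicate 3 (-1.08; 0.0243) and without Ly6Clow replicate 1 (-1.07; 0.0497). The block pairs cells of different genotypes here, so the shared numbers cannot mark shared mice.

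**Figure D4:**
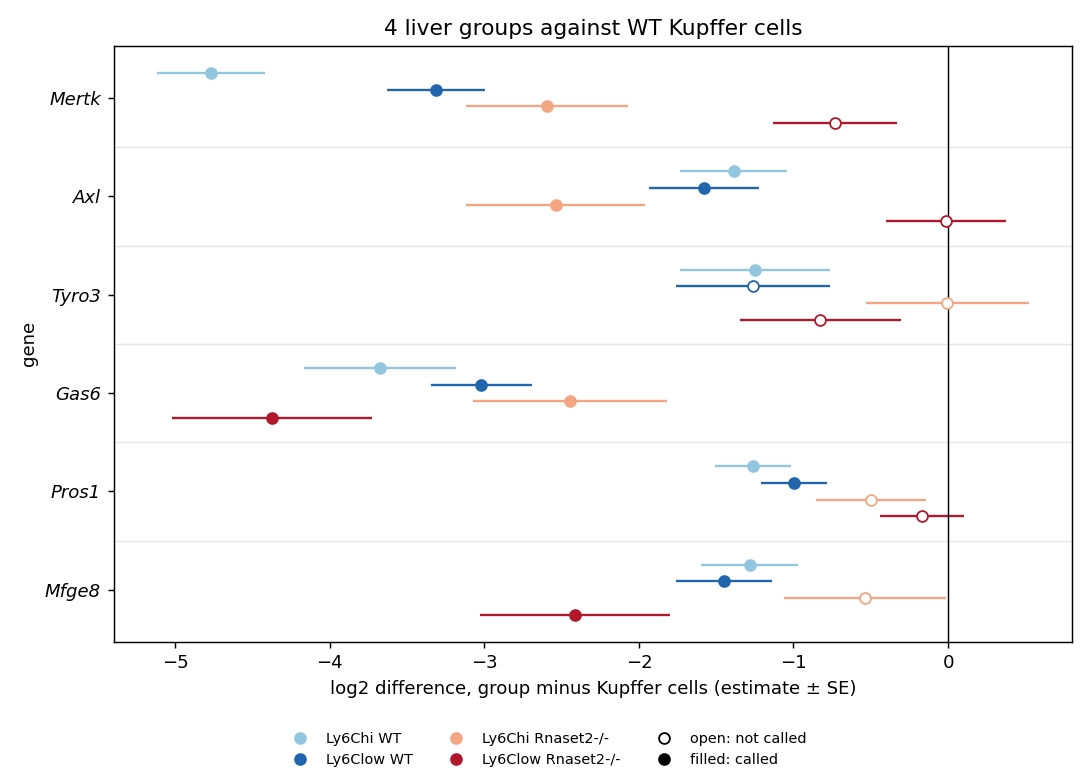
Log2 difference between each monocyte-derived liver group and WT KCs for the 6 members, with standard errors as bars; filled points were called by limma and open points were not. In Ly6Clow Rnaset2-/- cells (dark red), after scaling, Axl and Mertk lay at -0.01 and -0.73, whereas Gas6 and Mfge8 lay at -4.37 and -2.42.

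Scaling mattered in the comparisons with KCs. With RPM as deposited the median gene moved by -0.36 to -0.62 on the log2 scale against these values, and in the liver Ly6Chi genotype comparison by 0.29, which took the share of called genes that were higher from 51.2% to 74.6%. That share fell from between 42.5% and 48% to between 15.9% and 20.8% in the 4 comparisons with KCs. It moved from 44% to 31.1% for the spleen Ly6Chi genotypes, from 41.1% to 29.8% for the WT spleen subsets, from 51.9% to 65.4% for the WT liver subsets and from 51.4% to 38.8% for the Rnaset2-/- liver subsets. For the interaction terms it moved from 52.4% to 78.9% (Ly6Chi, between organs), from 56.7% to 71.8% (spleen) and from 49.2% to 27.9% (liver). The number of members called was the same with RPM as deposited or with trimmed-mean factors, or within 1.5 times of it, in all 18 comparisons.

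Across organs, liver Ly6Clow WT cells held more Mertk (1.51 ± 0.24; SE), Axl (2.23 ± 0.17) and Gas6 (3.44 ± 0.21) than spleen Ly6Clow WT cells, 3 of 5 tested members where 34.1% of all tested genes were called and 18.8% were higher (limma adjusted p = 0.000811, 1.07e-05 and 3.07e-06). In Rnaset2-/- Ly6Clow cells the liver exceeded the spleen in Mertk (3.42 ± 0.51), Axl (3.66 ± 0.29), Gas6 (2.25 ± 0.60) and Pros1 (0.87 ± 0.29), 4 of 5 where 36.1% were called and 18.5% were higher (limma adjusted p = 0.0016, 0.000132, 0.0186 and 0.0409). The Pros1 call was lost in 5 of 7 fits that left out a library (adjusted p up to 0.137), and 2 members were called without liver Ly6Clow Rnaset2-/- replicate 2 or 3. Gas6, at no more than 0.356 RPM in either spleen group, passed the filter through the liver group alone in both comparisons, so its calls depend on the group where it was high. Mfge8 differed by 0.32 in WT and -0.02 in Rnaset2-/- cells and was not called. All liver Ly6Clow Rnaset2-/- libraries held Y-linked RNA and no Xist. The spleen ones held Xist at 611 to 744 RPM, replicate 2 apart, so in this genotype organ and sex cannot be told apart.

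Other genes of the pathway were taken from lists, and 57 of them were in the table. The lists held bridging proteins, phosphatidylserine receptors, engulfment machinery, receptor-shedding proteases and regulators. They also held integrins that bind Mfge8, a carboxylation gene, signaling feedback genes and "don't eat me" genes such as Cd47 and Sirpa. In liver Ly6Clow cells all 3 of the "don't eat me" genes tested were called higher in the absence of RNase T2, so the counts below are not of clearance genes alone. The study names Nr1h3, Rxra and C1qb on these samples, as it does Mertk and Axl, so their direction is not independent evidence. In spleen Ly6Chi cells 4 of 44 tested genes were higher and 5 lower in the absence of RNase T2, where 9.77% and 12.5% of all tested genes were, and the median log2 difference was 0.07 against 0.01 over all tested genes. The 5 lower became 3 without WT replicate 1 or 3, and in 1 fit of all 29 libraries 0 were higher and 1 lower. In spleen Ly6Clow cells 5 of 45 were higher and 5 lower, against 4.05% and 4.3% of all genes (median -0.03 against 0.01). These counts rested on single libraries, with 0 lower without any 1 WT library, 0 to 3 higher in the same fits, and 2 or 3 lower without Rnaset2-/- replicate 2 or 4. In liver Ly6Chi cells 8 of 45 were higher and 7 lower, against 15.7% and 14.9% (median 0.01 against 0.01). Here 15 were higher without Rnaset2-/- replicate 1 and 2 to 5 without any other library, 3 or 4 were lower without WT replicate 3 or 1, and 1 was higher and 0 lower without the WT libraries holding both Xist and Y-linked RNA. In liver Ly6Clow cells 18 of 47 were higher and 12 lower, against 20.2% and 22.5% (median 0.51 against 0.01), and 15 to 19 were higher and 9 to 12 lower without any 1 library, but 8 and 5 without the WT libraries holding both Xist and Y-linked RNA.

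In spleen Ly6Chi cells the largest rises were those of Pparg, a lipid-sensing nuclear receptor (15.2 ± 0.381 to 33 ± 5.49 RPM; SD, n = 3 each), and Scarf1, a scavenger receptor (6.86 to 11.8 RPM). The largest falls were those of Abca1, a cholesterol exporter and liver X receptor target (30.5 ± 2.69 to 10.7 ± 1.99 RPM), and C1qb, a chain of the complement opsonin C1q (30.8 to 13.6 RPM). In spleen Ly6Clow cells C1qb (64.4 ± 10.4 to 324 ± 308 RPM; n = 3 and 4) and Nr1h3, the gene of LXRα (35.6 ± 3.4 to 95 ± 32.6 RPM), rose, and the phosphatidylserine-binding receptors Havcr2 (101 ± 12 to 27.7 ± 15.8 RPM) and Cd36 (563 ± 41.3 to 126 ± 59.7 RPM) fell. Of these 4 calls, those of C1qb, Havcr2, Cd36 and Nr1h3 were lost in 5, 4, 3 and 1 of 7 fits that left out a library, with adjusted p up to 0.162, 0.12, 0.0907 and 0.0568.

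In liver Ly6Chi cells the scavenger receptors Stab2 (3.54 ± 1.55 to 124 ± 100 RPM; SD, n = 3 each) and Stab1 (34.1 ± 7.93 to 279 ± 98.9 RPM), which sinusoidal endothelial cells also express, rose most. The matricellular protein Thbs1 (1271 ± 446 to 29.4 ± 16.7 RPM) fell most. In liver Ly6Clow cells Nr1h3 rose from 43.3 ± 7.09 to 796 ± 218 RPM, a log2 difference of 4.11 ± 0.23 (limma adjusted p = 1.56e-05). Timd4, a phosphatidylserine receptor that is also a KC marker, went from 0.57 ± 0.326 to 30 ± 32 RPM, with an SD above the mean. The study reports no expression of Tim4 or Clec4f in these Rnaset2-/- cells. Timd4 passed the filter through the Rnaset2-/- libraries alone, and its call was lost without the WT libraries holding both Xist and Y-linked RNA (limma adjusted p = 0.0807). Anxa1, an annexin that binds phosphatidylserine, fell from 358 ± 37.6 to 14.9 ± 8.7 RPM and Cd36 from 413 ± 21.8 to 26.5 ± 9.66 RPM. Rxra, the partner of liver X receptors, rose from 144 ± 37.7 to 795 ± 109 RPM and C1qb from 628 ± 173 to 4233 ± 264 RPM (log2 differences 2.44 and 2.75). C1qc, another C1q chain, rose from 3 ± 0.951 to 14.7 ± 1.74 RPM (log2 difference 1.96). C1qa stayed under the filter in all 4 subsets, at 0.145 ± 0.054 RPM in WT and 0.977 ± 0.383 RPM in Rnaset2-/- liver Ly6Clow cells, without overlap. Each C1q gene has its own amplicon, so these levels do not show that C1qa is scarcer than the other chains. In spleen Ly6Chi cells Nr1h3 also rose (10.8 to 17.3 RPM), whereas Rxra went down from 247 ± 8.98 to 163 ± 16.5 RPM without overlap. Its log2 difference of -0.49 (limma adjusted p = 0.0042) fell short of the fold threshold, and with RPM as deposited it was called (-0.60). Rxra was not called in spleen Ly6Clow or liver Ly6Chi cells. Nr1h2, the gene of LXRβ, was not called in any of the 4 subsets.

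Among genes averaging at least 10 RPM, those whose levels ran most like a member's over the 29 libraries were found by Pearson's r of log2 values. The libraries share organ, subset and genotype, so these values describe the pattern and were not tested. Mertk ran closest to Rab3il1 (0.97), Ephx1 (0.97) and Sbf2 (0.95), and Axl to Adap2 (0.96), Pdlim4 (0.96) and Frmd4b (0.96). Gas6 ran closest to Prelp, 1810011O10Rik and Ephb4 (0.97 each), and Pros1 to Rasal2 (0.92), Myo6 (0.91) and Tmem64 (0.90). Mfge8 ran closest to Il6st (0.84), Nynrin (0.83) and Spib (0.83), and Tyro3, with few reads, to Peak1 (0.85), Plcg1 (0.84) and Ap1b1 (0.83).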

How the data were processed

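The authors made the libraries with an AmpliSeq panel from sorted cells, sequenced them on an Ion Proton and obtained gene values with a Torrent Suite plug-in; the submitters' processing notes name mm10. The deposited table gives RPM for 23930 genes in 29 libraries, whose groups were read from the labels. All values came out as whole reads (tolerance 0.1 reads), at depths of 11175843 to 21167602 reads. Amplicon reads carry no molecular identifiers, so floors cover counting error only.

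In R 4.3.3, each comparison kept genes reaching 1 RPM in 3 or more of its libraries. RPM over relative log expression factors, plus a pseudocount of 1, were taken to log2 and fitted by limma 3.58.1 (lmFit, eBayes with trend), two-sided, with Benjamini-Hochberg adjustment over all tested genes. Genes were called at an adjusted p below 0.05 and over 1.5-fold. DESeq2 1.42.0, the authors' tool, and edgeR 4.0.16 were run on the recovered reads; adjusted p that DESeq2 gave as NA stayed NA. Other alternatives were a pseudocount of 0.1, no filter, RPM as deposited, TMM factors, 1 fit of all libraries, no fold threshold, a replicate block and leaving out libraries. On simulated data with 200 changed genes, limma recovered 97.0% for the spleen Ly6Chi genotypes (10364 genes), 99.0% for spleen Ly6Clow (10360), 95.5% for liver Ly6Clow (11269) and 99.0% for liver Ly6Clow Rnaset2-/- cells against KCs (12107). False calls numbered 9 to 11. The simulation changed well-read genes by a fixed amount, with the same dispersion for all genes and no library standing apart. These shares check the code and do not give the power behind the uncalled results.

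Labels do not say that replicate numbers mark shared mice. Deviations of same-numbered libraries correlated above 0.1 in every pair in 3 comparisons: the Rnaset2-/- liver subsets (0.27 to 0.53), liver Ly6Clow Rnaset2-/- cells against KCs (0.13 to 0.38) and liver against spleen Ly6Clow WT cells (0.12 to 0.44). Rnaset2-/- cells and KCs came from mice of different genotypes, so there the numbers cannot mark shared mice.

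Named genes were the 6 members; in each genotype comparison the 2 pathway genes of largest rise and the 2 of largest fall among those called, at 10 RPM or more in a group and without overlap; the C1q genes, Nr1h3, Nr1h2 and Rxra; and the 3 genes most like each member. Members and lists were chosen with earlier results of these data known. Of 63 pathway genes, 57 were found by symbol. The values of 1 gene that this rule names are not reported here.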

Additional observations from a re-analysis of the deposited data

Results flagged for a closer look

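In groups of 4 libraries, 12 sets of member values were screened for a library far from the others, and 1 was found. Chance gives about 1 in 20 for each set, so 1 among 12 sets is not unusual. The sets share libraries and are not independent. Mertk in spleen Ly6Clow Rnaset2-/- replicate 1 read 28.7 RPM against 5.68 to 8.03 RPM in the other 3, and the same library held the most neutrophil and KC marker RNA of its group. Differences of the genotype effect between organs or subsets that passed limma's test of the interaction were 1.88 for Mertk and 1.40 for Axl between liver and spleen Ly6Clow cells, 4.04 for Mertk and 1.73 for Tyro3 between liver and spleen Ly6Chi cells, 2.58 for Mertk and 1.62 for Axl between spleen Ly6Clow and Ly6Chi cells, and 2.78 for Axl between liver Ly6Clow and Ly6Chi cells, all on the log2 scale. In the liver, sex and genotype cannot be told apart, and among Rnaset2-/- libraries sex largely coincides with organ.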

How the results depend on the processing

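Values below are numbers of members called, or log2 differences. The 2 receptors kept their calls and directions in liver Ly6Clow and Axl in spleen Ly6Chi genotype comparisons without any 1 library. Numbers called changed over 1.5 times as follows, and the cause was not tested. Without the filter, liver Ly6Chi genotypes gave 2, the Rnaset2-/- spleen subsets 1 and the organ interaction in Ly6Clow cells 1. In 1 fit of all 29 libraries, liver Ly6Chi genotypes gave 4, the WT spleen subsets 0, the Rnaset2-/- spleen subsets 1, the WT liver subsets 0, the Rnaset2-/- liver subsets 4, the organ interaction in Ly6Clow cells 1, and the subset interactions 1 in the spleen and 2 in the liver. DESeq2 gave 2 for the Rnaset2-/- liver subsets, 1 for the organ interaction in Ly6Clow cells and 4 for that in Ly6Chi cells, and edgeR gave 0, with Axl at an adjusted p of 0.0512, and 1 for the first 2 of these. A pseudocount of 0.1 gave 1 for the organ interaction in Ly6Clow cells. Without the WT libraries holding both Xist and Y-linked reads, which leaves 1 WT library assumed to vary like the other groups, liver Ly6Chi genotypes gave 0, the organ interaction in Ly6Clow cells 1 and the subset interaction in the liver 0.

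With the replicate number as a block, the Rnaset2-/- liver subsets gave 4 and the Rnaset2-/- spleen subsets, whose numbers do not pair, 1. The block turned Axl in liver Ly6Clow Rnaset2-/- cells against KCs to 0.1526, Mfge8 between the organs in Rnaset2-/- Ly6Clow cells to 0.06204 and Mfge8 in the spleen subset interaction to -0.0329, none of them called. Apart from Mertk in liver Ly6Clow Rnaset2-/- cells against KCs (-0.63, called), the block changed no other call of a member. Other reversals, none called, were Nr1h2 in spleen Ly6Chi genotypes (-0.008261, RPM as deposited) and liver Ly6Chi genotypes (-0.02324, without the libraries holding both), Tyro3 in liver Ly6Chi Rnaset2-/- cells against KCs (0.2292, pseudocount 0.1, and 0.0244, TMM), Axl in liver Ly6Clow Rnaset2-/- cells against KCs (0.007481, TMM), Mfge8 between the organs in Rnaset2-/- Ly6Clow cells (0.2841, edgeR) and Pros1 in the liver subset interaction (-0.1526, RPM as deposited).

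Leaving out 1 library at a time, the number called ran from 0 to 5 for liver Ly6Chi genotypes, 1 to 2 for the WT and 1 to 3 for the Rnaset2-/- spleen subsets, 0 to 1 for the WT and 0 to 2 for the Rnaset2-/- liver subsets, 1 to 3 for liver Ly6Clow Rnaset2-/- cells against KCs, 2 to 4 for the organs in Rnaset2-/- Ly6Clow cells, 1 to 3 and 1 to 5 for the organ interactions in Ly6Clow and Ly6Chi cells, and 1 to 3 for the liver subset interaction. The 5 in the organ interaction and the 3 in the liver subset interaction came without liver Ly6Chi Rnaset2-/- replicate 1. Directions of uncalled differences turned within these ranges: Axl in spleen Ly6Clow genotypes (-0.0294 to 0.415), Gas6 in the WT liver subsets (-0.0508 to 0.9695), Pros1 in the Rnaset2-/- liver subsets (-0.117 to 0.638), liver Ly6Chi Rnaset2-/- cells against KCs for Tyro3 (-0.39 to 0.4095) and Mfge8 (-0.863 to 0.144), liver Ly6Clow Rnaset2-/- cells against KCs for Axl (-0.419 to 0.153) and Pros1 (-0.314 to 0.147), Mfge8 between the organs in Rnaset2-/- Ly6Clow cells (-0.836 to 0.468), the organ interactions for Mfge8 in Ly6Clow (-1.19 to 0.119) and Axl in Ly6Chi cells (-0.356 to 0.768), and the subset interactions for Mfge8 in the spleen (-0.149 to 0.5285) and Pros1 in the liver (-0.346 to 0.408). Over all genes, the spleen Ly6Chi genotypes gave 2311 calls but 1145 in 1 fit of all libraries and 3962 with no fold threshold. Spleen Ly6Clow genotypes gave 860 but 515 without the filter, 1600 by DESeq2 and 145 to 1121 without 1 library. Liver Ly6Chi genotypes gave 3351 but 5638 in 1 fit of all libraries, 1695 to 3880 without 1 library and 112 without the libraries holding both Xist and Y-linked reads, and liver Ly6Clow genotypes 4620 but 1218 without those libraries. Depth limits Gas6 in the spleen, at 0 to 11 reads a library, and Tyro3 in Ly6Clow cells, at 0 to 11 reads, and neither gene passed the filter in the genotype comparisons there.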
